A study of Homo sapiens with 6 samples.

Results

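Nucleolar ribosome biogenesis genes were examined in OCI-AML3, a human acute myeloid leukaemia cell line that carries a mutation of the nucleophosmin gene NPM1. The genes were chosen by symbol from knowledge of the pathway, and 39 were listed. Of these, 34 were read by at least 1 probe set naming that gene alone, out of 19775 genes read in this way. Where several probe sets named a gene, the one with the highest average value stood for it. NOP56, DKC1 and BOP1 were named only on probe sets that also name other genes, and no probe set named GNL3 or DDX18 here, so these 5 genes were not analysed. Total RNA from 3 samples treated with 1 μM Vorinostat (SAHA), an inhibitor of histone deacetylases, and from 3 samples given its solvent DMSO was taken after 24 h and hybridised to Affymetrix HG-U133 Plus 2.0 arrays. All 6 samples share the cell line and its NPM1 mutation, so no cells with wild-type NPM1 stand beside them. The samples of each treatment are numbered 1, 2 and 3. Whether they were separate cultures is not given in the sources used here, and p-values cover no more than the spread of these 6 samples, which could be technical.

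Ribosomes are built in the nucleolus. RNA polymerase I transcribes the ribosomal RNA precursor, small nucleolar ribonucleoproteins (snoRNPs) guide its methylation and pseudouridylation, and assembly factors and helicases fold and cut it into the RNAs of the small and large subunits. Nucleophosmin is an abundant nucleolar chaperone of this process. Its mutation in acute myeloid leukaemia alters the end of the protein and moves it into the cytoplasm. MYC is a known activator of many of these genes and binds the sequence CACGTG, called the E-box.

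The promoters of these genes were read for the E-box, which is the same on both strands. Of the 39 genes, 32 matched the RefSeq promoter sequences (GRCh38.p14, 250 bases before to 50 after each annotated start), with 38 start sites in all. An E-box stood in 15 of the 38 windows, 39.5%, against 8.36% of 21490 windows of the genes on the array and 7.26% of all 35116 windows. Of the 16 E-boxes in the windows of these genes, 15 began within 40 bases of the start, against 27.9% of 2005 E-boxes for the genes on the array. These 15 began between positions -31 and 36, close to the limit of 40, and the other, in NOP10, at -170. Other limits were not tested. Among 147 windows of further genes of the pathway 24.5% held an E-box. A match is a description of the letters only. The windows below run from 100 bases before the start through the first 30 transcribed bases, 5′ to 3′. They are shown for NPM1 and for a choice of the genes described later that have an E-box there, in capitals. Among other genes described later, NCL, POLR1A, NHP2 and BRIX1 had no E-box and are not shown. NPM1 and DDX21 each have a pair of annotated starts. Neither start of NPM1 has an E-box in its 300 bases, and that of DDX21 is at its second start.
NPM1, first start (chr5:171387749-171387878, plus strand): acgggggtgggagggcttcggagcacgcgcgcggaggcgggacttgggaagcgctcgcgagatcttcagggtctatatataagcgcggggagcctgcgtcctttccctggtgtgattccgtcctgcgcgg
NPM1, second start (chr5:171387016-171387145, plus strand): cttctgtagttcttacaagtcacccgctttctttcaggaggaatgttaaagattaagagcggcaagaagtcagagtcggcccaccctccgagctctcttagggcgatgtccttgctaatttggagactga
NOP14 (chr4:2963377-2963506, minus strand): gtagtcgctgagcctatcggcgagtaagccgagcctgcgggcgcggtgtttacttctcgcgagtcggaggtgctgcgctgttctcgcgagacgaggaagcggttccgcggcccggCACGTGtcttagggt
DDX21, second start (chr10:68956547-68956676, plus strand): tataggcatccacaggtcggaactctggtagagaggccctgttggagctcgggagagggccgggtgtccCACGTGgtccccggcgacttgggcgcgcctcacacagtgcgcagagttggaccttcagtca
NAT10 (chr11:34105529-34105658, plus strand): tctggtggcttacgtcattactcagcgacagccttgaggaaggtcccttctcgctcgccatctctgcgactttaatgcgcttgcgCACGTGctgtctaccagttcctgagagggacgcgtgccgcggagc
RRP9 (chr3:51941875-51942004, minus strand): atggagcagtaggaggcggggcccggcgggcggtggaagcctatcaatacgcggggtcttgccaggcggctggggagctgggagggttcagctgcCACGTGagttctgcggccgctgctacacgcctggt
FBL (chr19:39846350-39846479, minus strand): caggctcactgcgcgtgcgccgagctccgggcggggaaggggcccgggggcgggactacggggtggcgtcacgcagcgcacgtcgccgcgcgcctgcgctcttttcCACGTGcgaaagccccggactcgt
WDR43 (chr2:28894567-28894696, plus strand): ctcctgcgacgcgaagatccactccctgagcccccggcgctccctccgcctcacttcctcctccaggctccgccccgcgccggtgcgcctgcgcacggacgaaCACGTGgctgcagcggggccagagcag
GNL2 (chr1:37595908-37596037, minus strand): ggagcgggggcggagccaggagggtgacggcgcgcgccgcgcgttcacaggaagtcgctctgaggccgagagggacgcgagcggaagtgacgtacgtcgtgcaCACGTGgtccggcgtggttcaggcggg

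The E-box sat just upstream of the start in DDX21 and NAT10, ran across it in RRP9 and lay in the first transcribed bases in NOP14, FBL, WDR43 and GNL2. Among the measured genes with a promoter sequence, the median log2 difference between Vorinostat and DMSO was -0.38 for the 14 with an E-box and -0.17 for the 15 without. The ranges overlapped widely, -1.26 to 0.35 with an E-box and -1.04 to 0.30 without.

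Values are the log2 values per probe set that the authors deposited, and their level depended more on the replicate number than on the treatment. The 34 genes had medians of 4.71, 2.51 and 2.93 on Vorinostat arrays 1, 2 and 3, against 5.46, 2.96 and 2.67 on DMSO arrays 1, 2 and 3. Above a log2 value of 3, a level chosen with the data known, lay 28, 10 and 17 of the 34 genes on the Vorinostat arrays and 29, 17 and 15 on the DMSO arrays. Both number 1 arrays thus stood apart, with 8158 (Vorinostat) and 8645 (DMSO) probe sets above 3 over the whole array, against 2761 to 3731 on the other 4. The control probe sets for the 3′ and 5′ ends of GAPDH, which report on RNA quality, differed by 1.51 to 2.26 with Vorinostat and by 0.99 to 4.02 with DMSO, with the highest on DMSO array 3. Those of ACTB differed by 2.70 to 3.83 with Vorinostat and by 2.77 to 4.51 with DMSO, with the highest on DMSO array 1. The part of these array differences in the results below was not tested. Because the scale was not equal between arrays, values are also given within each replicate number. The values did not tell numbers 2 and 3 apart, so the pairing of those arrays rests on the sample titles alone. In bulk RNA, fewer cells with a transcript and less of it per cell cannot be told apart.

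The cell line was checked against markers. Of the 6 myeloid genes measured, CEBPA, LYZ and ELANE were above 3 on at least 5 of the 6 arrays, whereas MPO, SPI1 and CSF3R were below 3 on all 6. Of 4 genes of the HOX programme seen in NPM1-mutated leukaemia, HOXB3, MEIS1 and PBX3 were above 3 on the number 1 arrays only and HOXB4 on none. Of 22 T cell, B cell, erythroid, epithelial and fibroblast genes, 4 lay above 3, each on a single array. They were CD79A on Vorinostat array 2, CDH1 on DMSO array 3, COL1A2 on Vorinostat array 1 and COL3A1 on Vorinostat array 3.

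NPM1, on its main probe set 200063_s_at, was lower with Vorinostat in each replicate number, most in number 2. Its values were 10.23, 7.83 and 9.25 on Vorinostat arrays 1, 2 and 3, against 10.90, 9.75 and 9.77 on DMSO arrays 1, 2 and 3. The groups overlapped, since Vorinostat array 1 was above DMSO arrays 2 and 3. The means were 9.10 ± 1.21 with Vorinostat and 10.14 ± 0.66 with DMSO (SD, n = 3 each), a log2 difference of -1.04 (standard error 0.69, unadjusted p = 0.186, adjusted p = 1 from limma, adjusted by Benjamini-Hochberg). A fit blocked on the replicate number gave a standard error of 0.32, an unadjusted p = 0.0297 and an adjusted p = 0.887 from limma. Blocked, NPM1 was thus past the study's cutoff, which asks for more than 2-fold and an unadjusted p below 0.05. Without Vorinostat array 2 the difference was -0.40, and without Vorinostat array 1 it was -1.60 (unadjusted p = 0.0473 from limma).

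The 3 probe sets of NPM1 did not give the same direction. A second probe set, 221923_s_at, had 9.21, 5.13 and 6.91 on Vorinostat arrays 1, 2 and 3, against 9.35, 6.78 and 4.82 on DMSO arrays 1, 2 and 3, a log2 difference of 0.10 (standard error 1.52). The other one, 221691_x_at, had 9.44, 3.91 and 5.65 with Vorinostat, against 9.85, 5.55 and 5.00 with DMSO, a difference of -0.46 (standard error 1.93). All 3 probe sets were lower with Vorinostat in numbers 1 and 2, whereas in number 3 the main one differed by -0.53 and the others by 2.09 and 0.66. DMSO array 3 also had the largest 3′ to 5′ difference of GAPDH, 4.02, though not of ACTB. The part of RNA quality in the number 3 values was not tested. NPM1 has many near-identical processed copies in the genome, and probe sets whose names end in _s_at or _x_at can read more than 1 transcript, so which transcript each reads is uncertain.

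**Figure D1:**
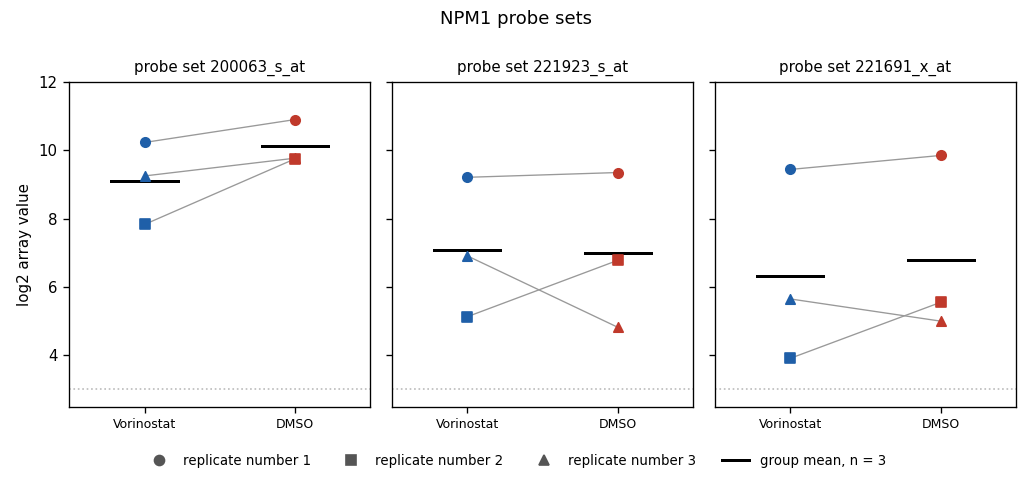
Log2 array values (y axis) of the 3 probe sets of NPM1 on the Vorinostat arrays (blue, left) and the DMSO arrays (red, right), with the marker giving the replicate number, grey lines joining equal numbers, black bars the group means of n = 3 and a dotted line at a log2 value of 3. The main probe set 200063_s_at is lower with Vorinostat in each number, and the other probe sets are higher in number 3, by 2.09 and 0.66.

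Over the 34 genes, 24 had a lower mean with Vorinostat and 10 a higher one. The 70.6% with a lower mean stood against 53.1% of all 19775 genes and 68.8% of genes with a mean above 3 over the arrays. The median log2 difference was -0.28, against -0.02 over all genes. Brighter genes as a whole had a similar value. Among the genes with a mean above 3, the median was -0.24 for 22 of the nucleolar genes and -0.23 for all 3379. Within replicate numbers the median of the 34 genes was -0.16, -0.50 and 0.08 in numbers 1, 2 and 3, with 20, 29 and 14 genes lower. Housekeeping genes, a control list of 11, had a median of -0.51 with all 11 lower in mean, more negative than the nucleolar genes. Within numbers 1, 2 and 3 they had 0.02, -1.70 and -0.24, more negative than the nucleolar genes in numbers 2 and 3. Their part in the result was not tested. The control list holds PGK1, which the study lists as decreased, and TBP, which is also among the further pathway genes described below. The sign turned when either of 2 arrays was left out. Without DMSO array 1 the median of the nucleolar genes was 0.29, and without Vorinostat array 2 it was 0.20. Scaling each array to its housekeeping median, chosen after the data were seen, turned it to 0.38 with 27 genes higher. That scaling shifts all genes on an array by the same amount and moved the median of all genes to 0.64. The gap of -0.26 between the nucleolar genes and all genes therefore could not change.

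**Figure D2:**
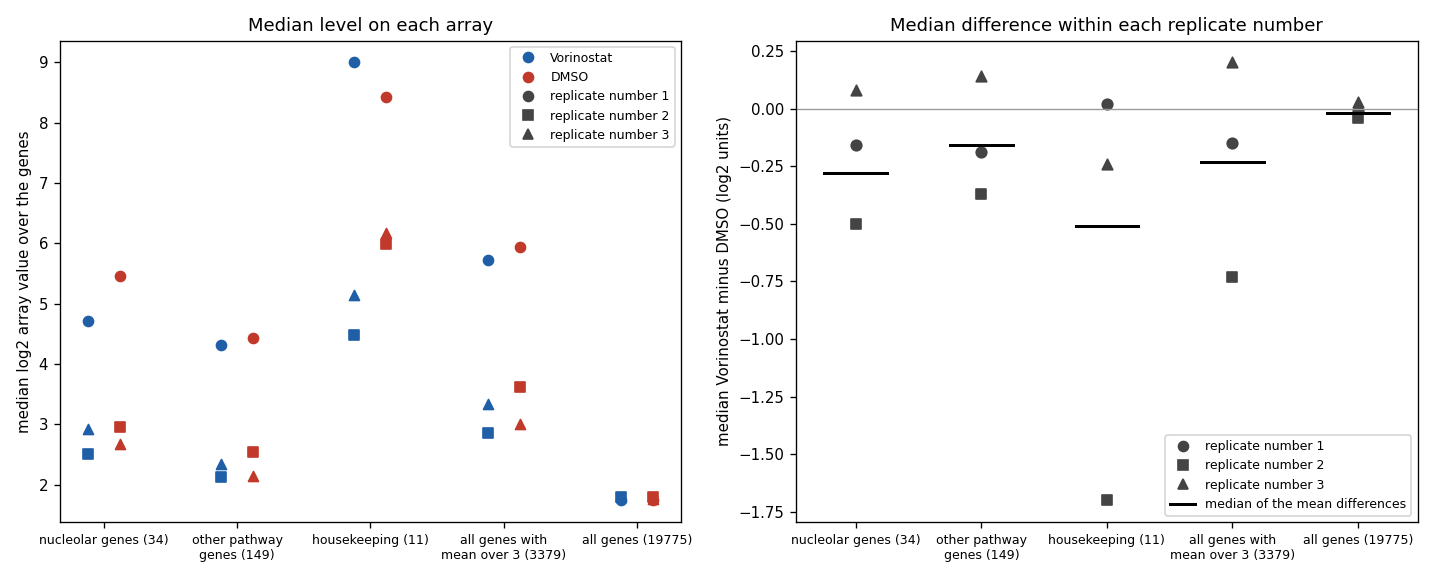
Left, median log2 array value of each gene group on each array, Vorinostat in blue and DMSO in red, with the marker giving the replicate number. Right, median log2 difference, Vorinostat minus DMSO, within each number, with black bars for the median of the mean differences, which is -0.28 for the nucleolar genes and -0.23 for all genes with a mean above 3.

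By limma, NOP14 alone, 1 of the 34, met the study's cutoff in the lower direction, against 0.0506% of all genes, and none in the higher direction, against 0.0455%. The study's own list of decreased genes holds neither NOP14 nor NPM1. Adjusted p-values from limma were 1 for all 34 genes, so 0 lay below 0.05. At an unadjusted p under 0.05 limma gave 1 of the 34, in the lower direction, against 77 lower and 119 higher of all 19775 genes. The methods' t-test gave 0 of the 34. With the replicate number as a block, 1 gene was past the cutoff in the lower direction, and that was NPM1 in place of NOP14, against 0.632% of all genes and 3.26% of those with a mean above 3, and none in the higher direction, against 0.197%. An unadjusted p under 0.05 in that fit was reached by NPM1, POLR1A and PES1, all lower, which is 8.82% of the 34 genes, against 3.12% of all genes and 9.35% of those with a mean above 3. Values were lower with Vorinostat in each of the 3 numbers for 9 genes, 26.5%, against 13.7% of all genes. This share was higher among brighter genes. Among those with a mean above 3 it was 19.5%, and 6 of the 22 nucleolar genes at that level were lower in each number. Values were higher in each number for RRP9 and UTP20, 5.88%, against 13.0% of all genes and 5.71% of those with a mean above 3. Every value of both genes lay under 3, and 0 of the 22 brighter nucleolar genes were higher in each number.

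**Figure D3:**
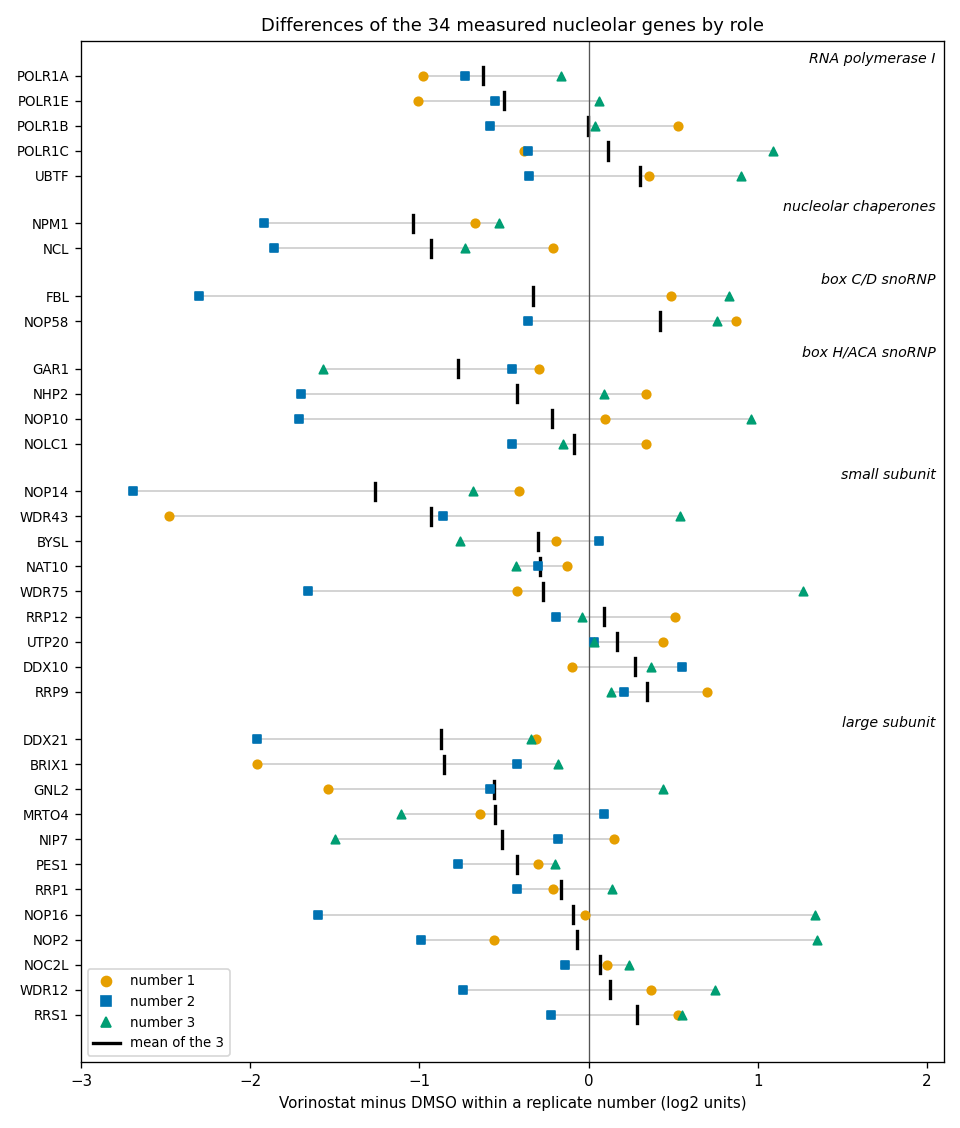
Log2 difference, Vorinostat minus DMSO (x axis), within replicate numbers 1, 2 and 3 for the 34 genes, grouped by role, with black bars for the mean of the 3. NOP14 in number 2, at -2.69, and WDR43 in number 1, at -2.48, are furthest left, and NPM1, NCL, NOP14 and DDX21 lie below 0 in each number.

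NCL encodes nucleolin, an RNA-binding chaperone of the ribosomal RNA precursor. It had 9.37, 4.57 and 5.69 on Vorinostat arrays 1, 2 and 3, against 9.59, 6.43 and 6.41 on DMSO arrays 1, 2 and 3. Vorinostat was the lower in each number, by a wide margin only in number 2, and the groups overlapped. The log2 difference was -0.93 (standard error 1.54). It was 0.12 without DMSO array 1, 0.05 without Vorinostat array 2, and -1.29 without both number 1 arrays (unadjusted p = 0.0281 from limma).

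Of the 5 genes of RNA polymerase I transcription, POLR1A, its largest subunit, was lower with Vorinostat in each number. Its values were 3.15, 2.37 and 2.32 with Vorinostat, against 4.13, 3.10 and 2.47 with DMSO, a log2 difference of -0.62 (standard error 0.48). Its mean lay above 3 with DMSO only. POLR1E, another subunit, had 3.42, 1.85 and 2.35 with Vorinostat, against 4.43, 2.40 and 2.29 with DMSO, a difference of -0.50 (standard error 0.72), with number 3 at 0.06. POLR1B, the second-largest subunit, and POLR1C, shared with RNA polymerase III, had differences of -0.00 and 0.11, with signs that varied between numbers. UBTF, which binds the ribosomal DNA promoter, had both group means under 3, so its difference of 0.30 is poorly measured.

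The box C/D snoRNPs carry out ribose methylation. FBL, their methyltransferase fibrillarin, had 7.90, 2.78 and 3.61 on Vorinostat arrays 1, 2 and 3, against 7.41, 5.08 and 2.78 on DMSO arrays 1, 2 and 3. It was lower with Vorinostat in number 2 alone, by 2.30 log2 units, and the log2 difference of the means was -0.33 (standard error 1.78). NOP58, a core protein of these particles, had 7.20, 1.51 and 2.71 with Vorinostat, against 6.34, 1.87 and 1.95 with DMSO, a difference of 0.42 (standard error 1.96). For both genes the span between arrays of 1 treatment was far wider than the gap between treatments.

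All 4 measured genes of the box H/ACA snoRNPs, which direct pseudouridylation, had a lower mean with Vorinostat. GAR1, a core protein, had 5.57, 2.37 and 2.69 on Vorinostat arrays 1, 2 and 3, against 5.86, 2.82 and 4.26 on DMSO arrays 1, 2 and 3. It was the 1 gene of the 4 that was lower in each number, mostly in number 3, with a log2 difference of -0.77 (standard error 1.16). NHP2, another core protein, had 8.55, 4.10 and 5.26 with Vorinostat, against 8.21, 5.80 and 5.17 with DMSO, a difference of -0.42 (standard error 1.40) that lay in number 2 alone. NOP10, the smallest core protein, and NOLC1, a chaperone of snoRNPs, had differences of -0.22 and -0.09.

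Among the 9 factors of the small subunit, NOP14 was the only one with all Vorinostat arrays below all DMSO arrays, a pattern of 1.95% of all genes. NOP14 is part of the small subunit processome, which folds and cuts the precursor of 18S RNA. Its values were 4.02, 2.91 and 4.15 on Vorinostat arrays 1, 2 and 3, against 4.44, 5.59 and 4.83 on DMSO arrays 1, 2 and 3. The means were 3.69 ± 0.68 with Vorinostat and 4.95 ± 0.59 with DMSO (SD, n = 3 each), a log2 difference of -1.26 (standard error 0.45, unadjusted p = 0.0363, adjusted p = 1 from limma). The gap was largest in number 2, at -2.69, and was -0.41 and -0.68 in numbers 1 and 3. It did not meet the cutoff with the replicate number as a block (unadjusted p = 0.0658 from limma), nor without DMSO array 2, without DMSO array 3 or without Vorinostat array 2, where the difference was -0.94, -1.32 and -0.86, nor after quantile normalisation (-1.08), housekeeping scaling (-0.60) or a filter on dim probe sets (-1.26, unadjusted p = 0.184 from limma).

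RRP9, a protein bound to the U3 snoRNA, had 2.25, 1.90 and 1.86 on Vorinostat arrays 1, 2 and 3, against 1.55, 1.69 and 1.73 on DMSO arrays 1, 2 and 3. All Vorinostat arrays were above all DMSO arrays, a pattern of 2.30% of all genes, but every value lay under 3, so the log2 difference of 0.35 (standard error 0.14, unadjusted p = 0.0529 from limma) is poorly measured. WDR43, which links transcription and processing of the precursor, had 2.98, 1.86 and 2.12 with Vorinostat, against 5.46, 2.72 and 1.58 with DMSO, a difference of -0.94 (standard error 1.03) that came mostly from number 1. NAT10, the cytidine acetyltransferase of 18S RNA, had 6.73, 3.96 and 4.10 with Vorinostat, against 6.86, 4.26 and 4.53 with DMSO. It was lower in each number, by 0.13 to 0.43 log2 units, a difference of -0.29 (standard error 1.05, and 0.11 with the replicate number as a block). The other 5, WDR75, BYSL, RRP12, UTP20 and the helicase DDX10, lay between -0.30 and 0.27. Both group means of RRP12 and UTP20 lay under 3, so their differences are poorly measured.

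The large subunit had 12 measured factors, of which 9 had a lower mean with Vorinostat. DDX21, an RNA helicase that acts on the precursor and on snoRNAs, had 8.65, 4.28 and 5.74 on Vorinostat arrays 1, 2 and 3, against 8.97, 6.23 and 6.08 on DMSO arrays 1, 2 and 3. It was lower in each number, by far the most in number 2, and its difference was -0.87 (standard error 1.37). Its second probe set gave -0.91 (standard error 1.28). Without DMSO array 1 the value was 0.07 and without Vorinostat array 2 it was 0.10.

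BRIX1, an assembly factor of the large subunit, had 3.34, 1.39 and 2.06 with Vorinostat, against 5.30, 1.81 and 2.24 with DMSO, a difference of -0.86 (standard error 1.07), most of it from number 1. PES1 forms a complex with BOP1 and WDR12 that is needed for 28S RNA maturation. It was lower in each number, with 4.43, 1.89 and 2.03 with Vorinostat, against 4.73, 2.66 and 2.23 with DMSO, a difference of -0.42 (standard error 0.97), and its mean lay above 3 with DMSO only. Its partner WDR12 had 0.13. The GTPase GNL2, MRTO4 and NIP7 had -0.56, -0.55 and -0.51, with signs that varied between numbers. RRP1, NOP16 and NOP2, a methyltransferase of 28S RNA, lay between -0.17 and -0.07, while NOC2L had 0.07 and RRS1, which brings in the 5S particle, had 0.29. Both group means of NIP7 and NOC2L lay under 3, so their differences are poorly measured.

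**Figure D4:**
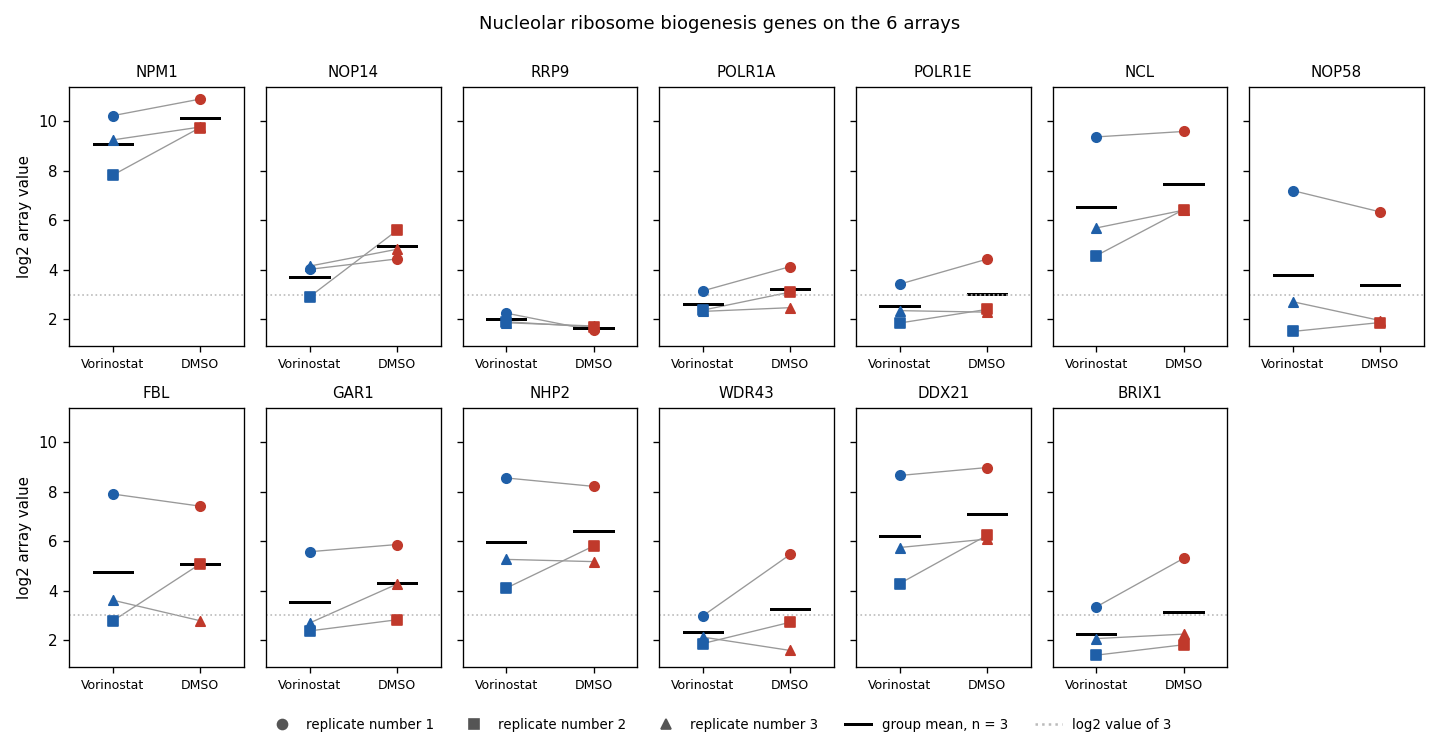
Log2 array values (y axis) of 13 genes on the Vorinostat arrays (blue, left) and DMSO arrays (red, right), with the marker giving the replicate number, grey lines joining equal numbers, black bars the group means of n = 3 and a dotted line at 3. NOP14 and RRP9 have groups that do not overlap, and for most others both number 1 arrays lie far above the rest, as for NOP58 at 7.20 with Vorinostat and 6.34 with DMSO.

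Across the 6 arrays, which share the spread between replicate numbers, the values of DDX21 and NCL ran most like those of NPM1 among the other 33 genes, with Pearson's r of 0.92 and 0.895, followed by NHP2 at 0.849, POLR1E at 0.848 and NOP10 at 0.839. The median r with NPM1 was 0.762 for these 33 genes, with a range of -0.548 to 0.92, and 0.0034 for all genes. Among genes with a mean above 3 it was 0.762 for 21 of the nucleolar genes and 0.744 for all 3378, so the likeness was about that of bright genes in general. Over all genes TARDBP and THUMPD3-AS1, both at 0.996, ELANE, neutrophil elastase, at 0.995, the mitochondrial COX2 at 0.994 and CENPQ at 0.992 were the most alike, with THUMPD3-AS1 and CENPQ under 3 on all 6 arrays.

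A further 156 genes of ribosome biogenesis were listed, and 149 were measured. Of these, 102 had a lower mean with Vorinostat and 47 a higher one, with a median log2 difference of -0.16. The 68.5% with a lower mean stood close to the 68.8% of all genes with a mean above 3. None met the study's cutoff, an unadjusted p under 0.05 or an adjusted p under 0.05, by limma or by the methods' t-test. The study lists SDAD1, a gene among the 149, with its decreased genes. On the probe set read here SDAD1 had a log2 difference of -0.63 (unadjusted p = 0.263 from limma), which did not meet the cutoff. Values on any other probe set of SDAD1 are not given here. Few genes met the cutoff in this fit at all, 10 lower and 9 higher of 19775. The missing call is therefore not particular to SDAD1, and its cause was not tested. Of the 149, values were lower in each number for 30 and higher in each for 8. The 30 are 20.1%, against 13.7% of all genes and 19.5% of those with a mean above 3. The 8 are 5.37%, against 13.0% of all genes and 5.71% of those with a mean above 3. With the replicate number as a block 3 were past the cutoff, all in the lower direction, which is 2.01% against 0.632% of all genes and 3.26% of those with a mean above 3. They were the coilin gene COIL (-1.44), the exosome subunit EXOSC8 (-1.23) and EMG1, a methyltransferase of 18S RNA (-1.19). COIL had 4.79, 3.0 and 4.72 on Vorinostat arrays 1, 2 and 3, against 6.29, 5.68 and 4.86 on DMSO arrays 1, 2 and 3, so its groups did not overlap. EXOSC8 had 5.47, 2.37 and 2.93 with Vorinostat, against 7.49, 3.91 and 3.07 with DMSO. EMG1 had 4.43, 2.08 and 1.15 with Vorinostat, against 6.0, 3.50 and 1.72 with DMSO. Both were lower with Vorinostat in each number, but their groups overlapped. EXOSC6, an exosome subunit, had 2.20, 1.92 and 1.73 with Vorinostat, against 2.76, 3.74 and 2.22 with DMSO. COIL and EXOSC6 were the 2 of the 149 genes with all Vorinostat arrays below all DMSO arrays, 1.34% against 1.95% of all genes. The smallest unadjusted p from limma in the lower direction were 0.0615 for EXOSC6 (-0.96), 0.0646 for COIL and 0.156 for POLR2F (-0.34), a subunit shared by the RNA polymerases. In the higher direction they were 0.174 for EXOSC4 (0.28), 0.248 for TSR2 (0.23) and 0.375 for FCF1 (0.09). Both group means of EXOSC6, POLR2F, TSR2 and FCF1 lay under 3.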

How the data were processed

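The authors deposited log2 values per probe set for 6 OCI-AML3 samples (Affymetrix HG-U133 Plus 2.0). MAS5 and RMA are named in the submitters' processing notes, without a role, and Partek Genomics Suite in the study's methods. The log2 scale was read from the values. Of 54675 probe sets, 62 controls were left out and 54613 were tested with limma 3.58.1 (R 4.3.3, no block, no filter) with Benjamini-Hochberg adjustment, which was checked on simulated data. The number of arrays limits the precision, and an exact permutation test of 3 against 3 cannot go below 0.1.

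The replicate numbers come from the sample titles. Deviations from the group means correlated at 0.874, 0.599 and 0.672 for numbers 1, 2 and 3, all above 0.1, so they were taken to pair the samples and the blocked fit is given where it changes a call. Vorinostat number 2 correlated at 0.695 with DMSO number 3, and Vorinostat number 3 at 0.594 with DMSO number 2. Numbers 2 and 3 were thus not told apart, and counts within numbers and the blocked fit depend on the titles for them.

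Genes and lists were chosen with earlier results of these data known. Array values are printed for NPM1, for genes past the study's cutoff with or without the block, for genes whose groups do not overlap, and for the 2 genes per role with the largest difference and a group mean over 3. Of the further genes, those past the cutoff and the 3 with the smallest p in each direction are named. NAT10 and PES1 were added after their values were seen. The alternatives were the block, quantile normalisation, the methods' t-test, the mean of all probe sets of a gene, a filter on dim probe sets (mean over 3), housekeeping scaling and leaving out arrays.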

Additional observations from a re-analysis of the deposited data

How the results depend on the processing

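The number of the 34 genes that met the study's cutoff was 1 (NOP14). It was 1 with the replicate number as a block (NPM1), 0 after the filter on dim probe sets, after housekeeping scaling, after quantile normalisation and by the methods' t-test, 2 without both number 1 arrays (NCL and NOP14), and 0 to 2 when single arrays were left out. The median difference of the 34 genes, -0.28, was 0.38 after housekeeping scaling and -1.08 to 0.29 without single arrays. It lay between -0.26 and -0.11 under the mean of all probe sets, quantile normalisation and without both number 1 arrays. The filter kept only 22 of the genes, and their median was -0.24. The difference of NPM1, -1.04, kept its direction in all 13 alternatives. The block, the methods' t-test and the filter cannot change that difference, so they say nothing about its direction. The second probe set of NPM1 taken alone, at 0.10, was not among the alternatives. With the replicate number as a block the difference of NPM1 was -1.04 and past the cutoff. It was -1.60 to -0.40 without single arrays and -0.24 after quantile normalisation. Of the 149 further genes, 3 were past the cutoff with the block, 2 after quantile normalisation (1 higher and 1 lower), 1 without both number 1 arrays, and 0 to 3 without single arrays. For alternatives other than the block, the share of all genes past the cutoff is not given here.

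Signs turned for several genes, none of them past the cutoff in the fit without a block. After housekeeping scaling POLR1A had 0.04, POLR1E 0.16, FBL 0.33 and NHP2 0.24. Without single arrays the ranges were -0.94 to 0.20 for POLR1E, -2.35 to 0.12 for NCL, -1.28 to 1.90 for NOP58, -1.90 to 0.83 for FBL, -1.78 to 0.00 for GAR1, -1.71 to 0.51 for NHP2, -1.77 to 0.17 for WDR43, -2.09 to 0.10 for DDX21 and -1.51 to 0.24 for BRIX1. The cause was not tested. Values under a log2 value of 3 and the small number of arrays limit what can be measured.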
